A study of Rattus norvegicus with 34 samples.

Results

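The effect of the clodronate in a liposome can be separated from that of the liposome and its injection only where both arms received liposomes. Gene expression was therefore compared between the retinae of 5 PKD rats injected with clodronate-coated liposomes (PKD + Clodronate) and 6 PKD rats injected with control liposomes (PKD + Controlliposomes), which are 11 of the 34 samples of the series. Members were chosen by treatment group alone, and all 44 specific genes of a TaqMan microfluidic card were considered. PKD rats were male homozygous transgenic rats, PKD2(HA-1/703-CMV-247), in which the CMV promoter drives a truncated polycystin-2. Which retinal cells express the transgene was not examined. Rats were 4 and 8 weeks old at the 2 injections into the vitreous (3 µl each) and 9 weeks old when the retina was taken. Uninjected 9-week-old PKD rats (n = 6) and Sprague Dawley (SD) rats (n = 6) are given as a scale and share 1 fit with the compared groups. The model is thus 1 transgenic line, read at 1 time after injection.

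Microglia are the resident macrophages of the retina. They carry complement and Fc receptors with which they bind and engulf opsonized material, and in degenerating retina they are joined by macrophages from the blood. Liposomal clodronate is taken up by phagocytes and is toxic to them once it is released inside the cell, while empty liposomes are engulfed without that toxicity. Most of the marker genes below are shared by microglia and macrophages of the blood, so the card does not separate these cells. In RNA from whole retina, fewer cells of a type and less RNA per cell cannot be told apart.

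The cards give Cq values, the PCR cycle at which a well crosses the detection threshold. For expression, the Cq of a gene was subtracted from the mean Cq of 4 reference genes (18S, *B2m*, *Mrpl19*, and *Ywhaz*), and the result was set to 0 at the SD mean. This is a log2 scale at full amplification efficiency. The 11 rats had 528 wells, of which 30 held no Cq, and Cq ranged from 6.45 to 34.87 with a median of 23.99 in the specific genes. No well was repeated and a Cq does not tell how many molecules were read, so the error of a well cannot be separated from variation between rats. The precision is limited by this error and by how many rats there were. Rats are called clodronate rats 1 to 5 and control rats 1 to 6, where the number is only a name. The tissue label could be checked only in part, because no gene restricted to photoreceptors, endothelial cells, or pericytes is on the card. *Gfap*, expressed by astrocytes and by stressed Müller cells, had a Cq in all 11 rats, with a mean of 19.8 in clodronate and 19.7 in control rats.

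Of 41 genes with at least 3 Cq values in both groups, 2 passed an adjusted p of 0.05, which is 4.88% of the genes tested, and both were lower with clodronate. This count ranged from 0 to 3 when single rats were left out, and was 0 without clodronate rat 1, clodronate rat 3, control rat 2, or control rat 4. The genes were *Aif1*, which encodes the microglial and macrophage protein Iba1, and *Itgam*, which encodes CD11b, the alpha chain of complement receptor 3. They were also the genes in which every clodronate rat was below every control rat (2 of 41, 4.88%), and there was none with every clodronate rat above (0 of 41, 0%). An unadjusted p under 0.05 was reached by 5 genes (12.2%), the other 3 being *Trem2*, *Fcgr3a*, and *C5ar2*. All 5 were lower with clodronate, against 0 genes higher. With the mean of the specific genes as the normalizer, 5 lower and 3 higher genes reached this threshold. With the microglia and macrophage markers as the normalizer, 2 lower and 15 higher genes did. These counts were 3 and 0 without clodronate rat 1, and 7 and 1 without clodronate rat 4. The median difference over the 41 genes was −0.07, with 24 genes (58.5%) lower and 17 higher. This balance depended on the scaling, with 18 lower and 23 higher when the mean of the specific genes was the normalizer (median 0.10), 20 and 21 without *Mrpl19*, and 13 and 28 when the microglia and macrophage markers were the normalizer (median 0.35). It also turned with 1 rat, to 19 lower and 22 higher without clodronate rat 1 (median 0.03), and was 30 and 11 without clodronate rat 2 (median −0.14). The difference was 0.5 or more in size for 15 genes (36.6%) and smaller for 26.

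**Figure D1:**
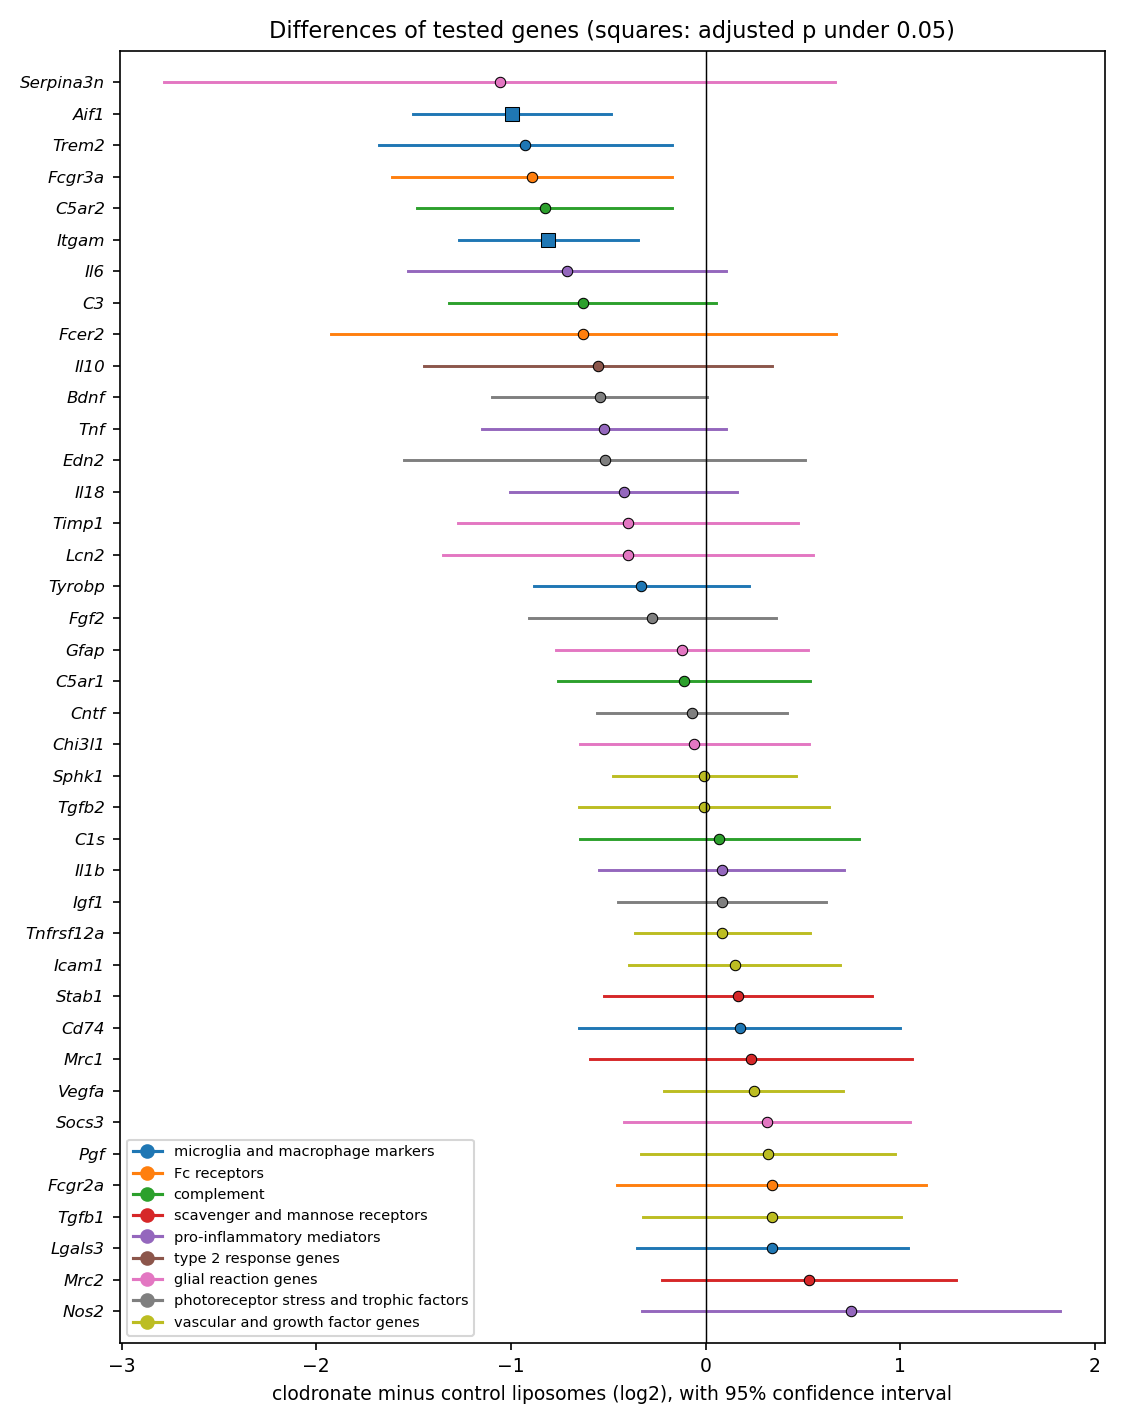
Difference in log2 expression (horizontal axis, clodronate minus control liposomes) of 40 of the 41 tested genes, in order of size and coloured by gene list, with 95% confidence intervals from limma as lines. Squares mark the 2 genes with an adjusted p under 0.05, *Aif1* at −0.99 and *Itgam* at −0.81. The interval of every plotted gene to the right of 0 includes 0.

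The microglia and macrophage markers comprised 6 genes. *Aif1* expression in the clodronate rats 1 to 5 was −0.30, 0.0009, −0.98, 0.30, and −0.15. In the control rats it ranged from 0.41 to 0.99 with a median of 0.81. The highest clodronate rat was thus below the lowest control rat, and clodronate rat 3 lay furthest down. The means were −0.22 ± 0.477 (SD, n = 5) and 0.77 ± 0.213 (n = 6), a difference of −0.99 (95% confidence interval −1.50 to −0.48, standard error 0.247), or 49.7% lower on the linear scale. The adjusted p of limma was 0.0194, and the two-sided exact permutation test gave p = 0.00216, the smallest that 5 rats against 6 allow (0.0444 after adjustment over 41 genes).

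*Itgam* expression was 0.46, 0.93, 0.85, 0.63, and 0.61 in the clodronate rats, and 1.19 to 1.91 with a median of 1.52 in the control rats. The groups did not overlap, and the clodronate rats lay within a narrow range. The means were 0.70 ± 0.191 (SD, n = 5) and 1.50 ± 0.256 (n = 6), a difference of −0.81 (95% confidence interval −1.27 to −0.35, standard error 0.224, adjusted p = 0.0278 by limma), or 42.9% lower. The exact permutation p was 0.00216 before adjustment. When *B2m* was left out of the reference genes, neither *Aif1* (adjusted p = 0.0796) nor *Itgam* (0.204) passed, and neither passed without normalization (0.122 for both). *Itgam* also did not pass without *Mrpl19*, nor among the rats of the lower animal number series alone. With the microglia and macrophage markers as the normalizer, neither gene passed. In all, *Aif1* passed in 15 and *Itgam* in 13 of 18 settings. With single rats left out, *Aif1* passed in 7 and *Itgam* in 4 of 11 fits.

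*Trem2*, a lipid-binding receptor of microglia that promotes phagocytosis, was at −1.16, −0.77, −1.21, 0.71, and −0.22 in the clodronate rats and at −0.05 to 0.81 (median 0.30) in the control rats. Clodronate rat 4 lay among the highest control rats and the other four below all of them. The difference was −0.93 (95% confidence interval −1.68 to −0.17), which did not pass after adjustment (adjusted p = 0.147 by limma, exact permutation p = 0.0368 before adjustment). Without clodronate rat 4 it was −1.24, and *Trem2* was then among 3 genes past the threshold. It also passed in a fit of the 2 compared groups alone with the series of animal numbers in the column headers as a block (−1.09, adjusted p = 0.0425).

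The other 3 markers of the list did not pass, and whether they differed from *Aif1* and *Itgam* in response was not tested. *Tyrobp*, the signalling adaptor of *Trem2*, was at 0.70, 1.17, 1.26, 1.08, and 0.49 in the clodronate rats and at 0.81 to 1.85 (median 1.19) in the control rats, a difference of −0.33 (95% confidence interval −0.88 to 0.22, adjusted p = 0.600 by limma). All 5 clodronate rats were below the control mean of *Tyrobp*, the groups overlapped, and the difference ranged from −0.42 to −0.21 when single rats were left out. *Cd74*, the invariant chain of class II antigen presentation, was at −0.62, 0.96, 0.66, 1.03, and 0.13 in the clodronate rats and at −0.56 to 1.31 (median 0.22) in the control rats. The groups overlapped over nearly their whole ranges, with a difference of 0.17 (95% confidence interval −0.65 to 1.00), which was 0.01 without control rat 2 and 0.44 without clodronate rat 1. *Lgals3*, which encodes galectin-3 of activated phagocytes, was at 1.38, 2.20, 1.89, 1.47, and 1.59 in the clodronate rats and at 0.68 to 2.07 (median 1.49) in the control rats. Every clodronate rat was above the mean of the control rats, yet the groups overlapped, and the difference was 0.34 (95% confidence interval −0.35 to 1.04, adjusted p = 0.600), or 0.21 without control rat 5.

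The 6 markers had a median difference of −0.57 against −0.07 over all genes tested, with 4 of them lower and 2 higher. Their summed level, in multiples of the SD mean, did not separate the groups. It was 1.21, 2.40, 1.99, 1.94, and 1.50 in the clodronate rats and 1.52, 1.85, 2.36, 1.77, 1.19, and 1.36 in the control rats. In each of these rats the most abundant gene of the sum was *Lgals3* or *Cd74*, so the sum is weighted towards the assays with the lowest Cq and little towards *Aif1* and *Itgam*.

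**Figure D2:**
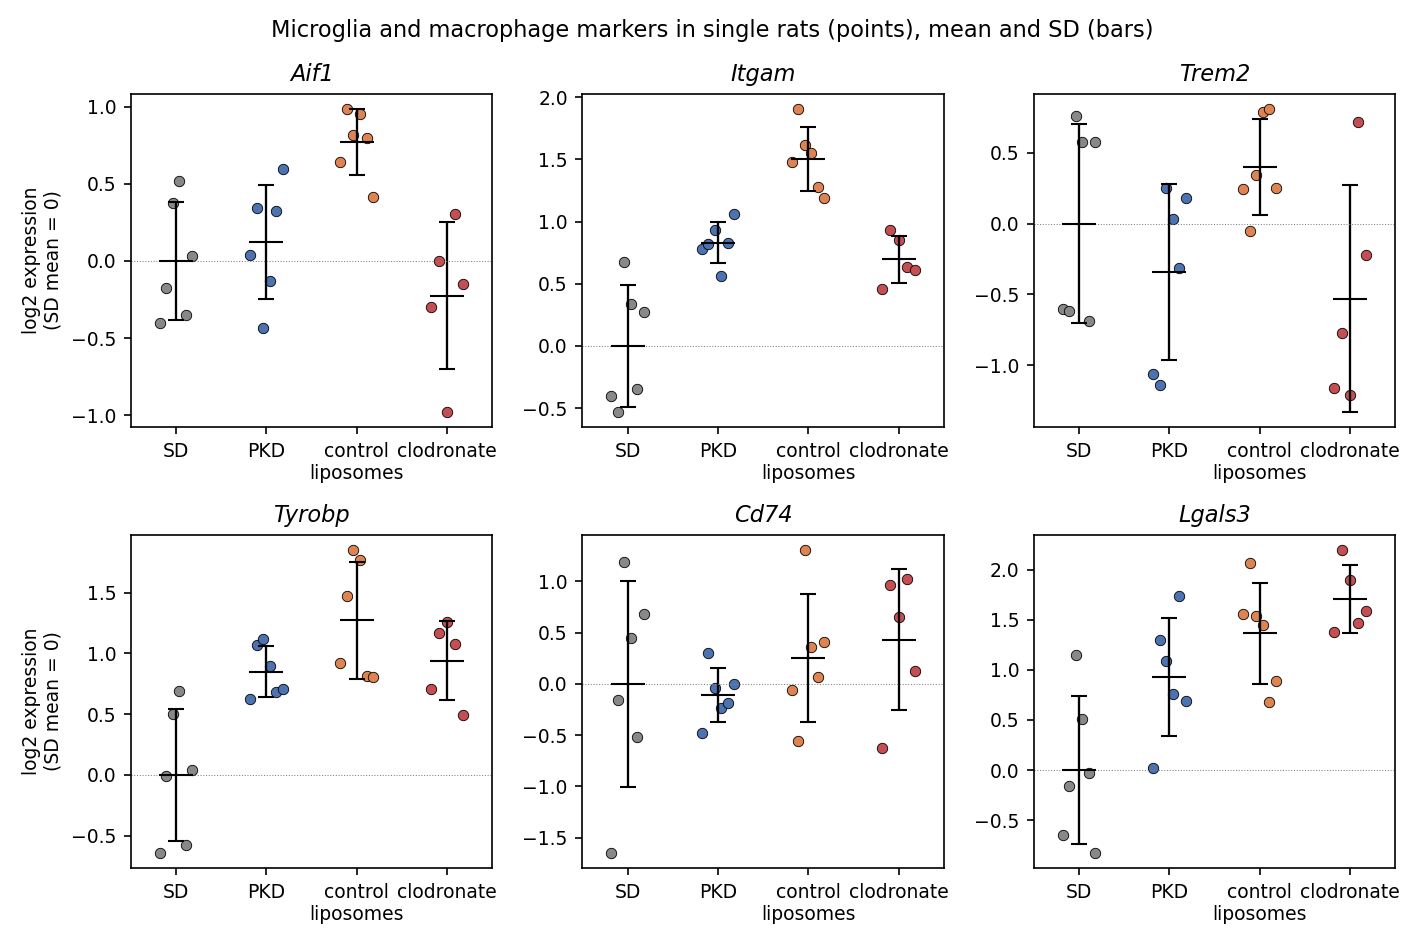
Expression of the 6 microglia and macrophage markers in single rats (points; vertical axes, log2 with the SD mean at 0) of the SD, PKD, control liposome, and clodronate groups, with mean and SD as bars. For *Aif1* and *Itgam* all clodronate rats lie below all control liposome rats, whereas for *Cd74* and *Lgals3* the groups overlap.

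Because all wells of a rat are read from the same card, the reference genes cancel in the Cq difference of 2 markers, which was examined after the values were seen and is given without a test. Its size depends on the assays, so it is read only between rats. *Lgals3* and *Cd74* were the 2 markers of the list that were higher in mean with clodronate. Setting *Aif1* or *Itgam* against either therefore widens the mean difference between the groups. Cq differences to the other markers of the list were not examined. The Cq of *Aif1* minus the Cq of *Lgals3* was 4.36, 4.88, 5.55, 3.84, and 4.42 cycles in the clodronate rats and 2.56 to 3.76 (median 3.29) in the control rats. The groups did not overlap, as for *Aif1* alone, and less *Aif1* per *Lgals3* was read in every clodronate rat. The same held for *Itgam* minus *Lgals3*, at 4.73 to 5.17 cycles (median 4.88) in the clodronate rats and 3.30 to 4.06 (median 3.80) in the control rats. Against *Cd74*, the ranges overlapped, with 3.08 to 5.04 cycles against 1.86 to 3.90 for *Aif1*, and 3.54 to 5.02 against 2.16 to 4.32 for *Itgam*. In uninjected PKD rats *Aif1* minus *Lgals3* was 2.66 to 4.20 cycles, and in SD rats it was 1.82 to 3.45. *Itgam* minus *Lgals3* was 3.14 to 4.802 cycles in uninjected PKD rats, which reached into the range of the clodronate rats, and 2.80 to 4.37 in SD rats. *Aif1* minus *Cd74* was 2.82 to 3.80 and 2.16 to 4.22 cycles in uninjected PKD and SD rats, and *Itgam* minus *Cd74* was 3.37 to 4.11 and 3.38 to 5.14.

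**Figure D3:**
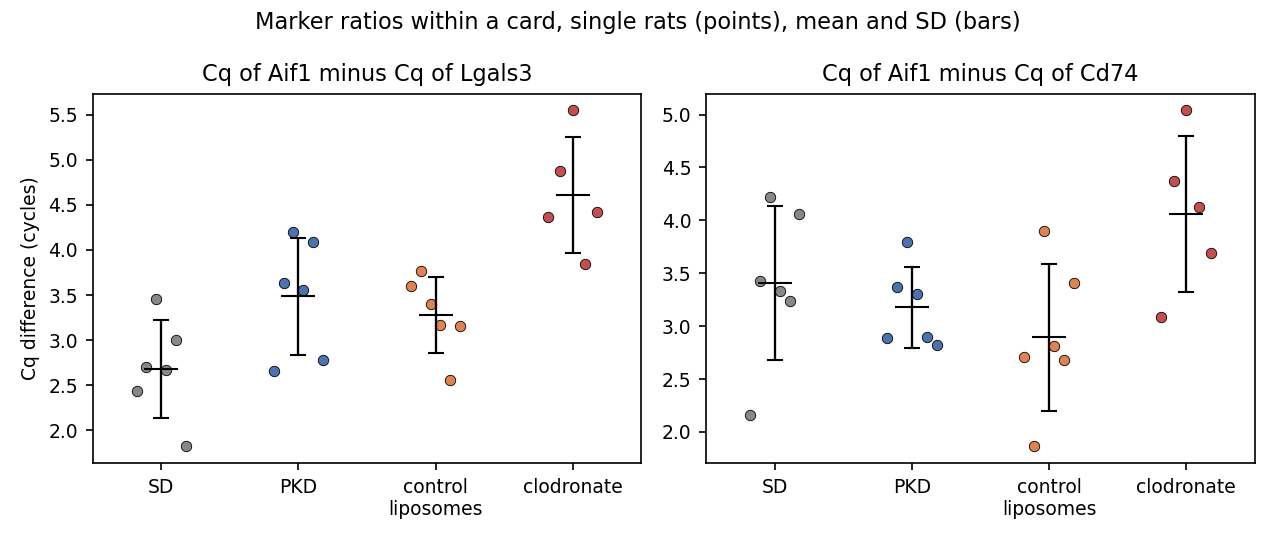
Cq of *Aif1* minus Cq of *Lgals3* (left) and of *Cd74* (right), in cycles (vertical axes), in single rats (points) of the 4 groups, with mean and SD as bars. A higher value means less *Aif1* relative to the other marker, and the clodronate rats (3.84 to 5.55) lie above all control liposome rats (2.56 to 3.76) on the left only.

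Myeloid genes are often bound upstream of their start by PU.1, a factor of the Ets family whose sites often contain the letters GAGGAA. The 250 bases before the start of *Itgam* are shown because it is 1 of the 2 genes that passed, together with windows of 30 bases around the match in *Trem2* and *Fcgr3a*, which had an unadjusted p under 0.05. *Aif1* is not in the promoter table. The sequences are from RefSeq (build GRCr8) and run 5′ to 3′ on the strand of the gene, and capitals mark GAGGAA or, for the other strand, TTCCTC. The *Itgam* sequence lies on the plus strand of chr1:192089342-192089591.
Itgam: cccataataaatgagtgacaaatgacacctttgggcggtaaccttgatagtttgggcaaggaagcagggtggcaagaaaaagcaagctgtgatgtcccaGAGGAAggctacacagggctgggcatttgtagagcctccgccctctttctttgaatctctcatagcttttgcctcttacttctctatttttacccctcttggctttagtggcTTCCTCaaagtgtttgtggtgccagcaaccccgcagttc
Trem2: agcctcctttccTTCCTCcctcgtgccctt
Fcgr3a: aaagctatttacTTCCTCtcttctagccaa
The matches begin 151 and 39 bases before the gene start in *Itgam*, and 29 (*Trem2*) and 54 bases (*Fcgr3a*) before it in the others. These 6 letters were found on either strand in 7812 of 33469 promoters of the table (23.3%). Counted by gene, with a match in any listed promoter, they were found in 6807 of 27457 genes (24.8%) and in 13 of the 32 specific genes of the card that the table lists (40.6%). A match is only a run of letters, and binding was not measured.

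Among the 3 Fc receptors, which bind antibody-coated material, *Fcgr3a* differed most and no gene passed after adjustment. *Fcgr3a*, the activating receptor CD16, was at 0.07, 0.21, 0.52, 0.97, and 0.28 in the clodronate rats and at 0.74 to 1.76 (median 1.34) in the control rats. Clodronate rat 4 was above the lowest control rat only, and the other clodronate rats were below all control rats. The difference was −0.89 (95% confidence interval −1.61 to −0.17, adjusted p = 0.147 by limma, exact permutation p = 0.0108 before adjustment). In a fit of the 2 compared groups alone, its adjusted p was 0.0399, and with the number series as a block added to that fit it was 0.0469. *Fcer2*, the low-affinity IgE receptor, was at −2.00, −1.37, −1.80, −2.02, and −1.09 in the clodronate rats and at −1.91 to 0.18 (median −1.34) in the control rats. Control rats 2 and 3 stood above all others, and the difference of −0.63 (95% confidence interval −1.93 to 0.67) was −0.42 or −0.39 without 1 of them. Its mean Cq was 33.8 in clodronate and 33.2 in control rats, near the end of the range, as were those of *Tnf* (33.9 and 33.4), *Il10* (33.3 and 32.7), and *Il6* (32.5 and 31.8). *Fcgr2a* was at 0.34 (95% confidence interval −0.45 to 1.13), or 0.12 without control rat 1, and its clodronate rats ranged from 0.07 to 0.99.

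Of the 4 complement genes, 3 were lower with clodronate and 1 higher, with a median of −0.37, and none passed after adjustment. *C5ar2*, the second receptor of the anaphylatoxin C5a, was at −0.64, 0.02, 0.34, −0.08, and −0.20 in the clodronate rats and at 0.17 to 1.45 (median 0.68) in the control rats. Clodronate rat 3 was the only one above the lowest control rats. The difference was −0.83 (95% confidence interval −1.48 to −0.17, adjusted p = 0.147 by limma, exact permutation p = 0.0173 before adjustment), and the adjusted p was 0.0184 without 18S. *C5ar1*, the other C5a receptor, differed by −0.11 (95% confidence interval −0.76 to 0.53), and it was at 0.05 when the specific genes were the normalizer. The central component *C3* was at 1.00, 1.75, 2.38, 1.89, and 1.30 in the clodronate rats and at 1.45 to 2.98 (median 2.40) in the control rats, a difference of −0.63 (95% confidence interval −1.32 to 0.06, adjusted p = 0.410). *C1s*, the protease of the C1 complex, was at 0.78, 1.72, 1.87, 1.50, and 1.00 in the clodronate rats and at 0.65 to 1.99 (median 1.37) in the control rats. The 2 groups covered the same range of *C1s*, with a difference of 0.07 (95% confidence interval −0.65 to 0.79).

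The 3 scavenger and mannose receptors, of which *Mrc1* and *Stab1* are carried by macrophages of a repair type, were all higher in mean with clodronate, and none passed. *Mrc2*, a collagen-binding member of the mannose receptor family, was at 0.66, 0.61, 0.81, 0.63, and 0.39 in the clodronate rats and at −0.71 to 1.03 (median 0.17) in the control rats. The clodronate rats lay close together, all above the control mean, while the control rats spread on both sides of them. The difference was 0.53 (95% confidence interval −0.23 to 1.28, adjusted p = 0.563 by limma). *Mrc1* differed by 0.23 (95% confidence interval −0.59 to 1.06) and *Stab1* by 0.17 (95% confidence interval −0.52 to 0.85). Both changed sign when certain single rats were left out.

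None of the 5 pro-inflammatory mediators passed, with a median of −0.42, 3 of them lower and 2 higher. *Il6* was at 0.71, 0.07, 1.23, 0.85, and 0.90 in the clodronate rats and at 0.83 to 2.22 (median 1.46) in the control rats. Every clodronate rat was below the control mean, and the difference was −0.71 (95% confidence interval −1.53 to 0.11, adjusted p = 0.435 by limma, exact permutation p = 0.0584). *Tnf* was at 0.04, −1.15, −0.57, 0.48, and −0.35 in the clodronate rats and at −0.21 to 0.90 (median 0.02) in the control rats, a difference of −0.52 (95% confidence interval −1.15 to 0.10), or −0.31 without clodronate rat 2. *Nos2*, the inducible nitric oxide synthase, had a difference of 0.75 (95% confidence interval −0.33 to 1.82), or 1.15 without clodronate rat 4. It was at −0.18, −0.29, 0.18, −2.12, and −0.04 in the clodronate rats and at −2.34 to 0.36 (median −1.44) in the control rats, so that 4 of the 5 clodronate rats lay above the control mean. *Il18* differed by −0.42 (95% confidence interval −1.004 to 0.16; −0.26 without control rat 4) and *Il1b* by 0.08 (95% confidence interval −0.55 to 0.71).

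Of the 5 type 2 response genes, 2 had enough Cq values to be tested and neither passed. *Il10* was at −1.16, −0.31, −1.25, −0.69, and 0.40 in the clodronate rats and at −1.27 to 1.70 (median −0.17) in the control rats. The clodronate rats fell inside the range of the control rats, and the difference was −0.55 (95% confidence interval −1.44 to 0.34), or −0.20 without control rat 3 at 1.70. *Chi3l3* had no Cq in either group, *Retnla* had 1 Cq of 29.7 in the control rats, and *Il13* had 1 Cq in each group.

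The 6 glial reaction genes, which astrocytes and Müller cells raise in injured retina, had a median of −0.26, and none passed. *Serpina3n*, a serine protease inhibitor of reactive astrocytes, had a difference of −1.06 with a wide interval (95% confidence interval −2.78 to 0.66, adjusted p = 0.600 by limma). It was at 2.75, 4.05, 4.32, 4.50, and 4.16 in the clodronate rats and at 3.65 to 7.46 (median 4.78) in the control rats. Control rat 5 was far above the other rats and clodronate rat 1 below them, and the difference of *Serpina3n* was −0.57 without control rat 5. *Gfap* was at 2.33, 2.93, 3.14, 2.94, and 2.78 in the clodronate rats and at 2.65 to 3.33 (median 2.91) in the control rats, a difference of −0.12 (95% confidence interval −0.77 to 0.53). *Socs3*, the feedback inhibitor of cytokine signalling through Stat3, was at 4.12 to 5.13 in the clodronate rats and at 4.23 to 4.58 in the control rats. All 4 clodronate rats other than rat 1 were above every control rat for *Socs3*, with a difference of 0.31 (95% confidence interval −0.42 to 1.05). *Lcn2*, *Timp1*, and *Chi3l1* had differences of −0.40, −0.40, and −0.06. With single rats left out, *Lcn2* ranged from −0.56 to −0.23, *Timp1* from −0.62 to −0.25, and *Socs3* from 0.22 to 0.47.

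Photoreceptors under stress secrete endothelin-2, encoded by *Edn2*, and retinal cells raise trophic factors with them. *Edn2* was at 3.77, 3.80, 4.30, 4.47, and 4.82 in the clodronate rats and at 4.52 to 4.98 (median 4.77) in the control rats. Of the clodronate rats, 4 lay below every control rat and rat 5 within their range. The difference was −0.52 (95% confidence interval −1.55 to 0.51), with an adjusted p of 0.600 in limma and p = 0.0281 before adjustment in the exact permutation test of the 2 groups alone. The limma interval rests on 1 spread shared by all 4 groups. For *Edn2* the standard deviation was 1.68 in SD rats, 0.449 in clodronate rats, and 0.194 in control rats. *Edn2* was the gene by which 6 genes (14.6%) had an exact p under 0.05. *Bdnf* was at −1.07, −2.31, −1.44, −0.71, and −0.71 in the clodronate rats and at −1.17 to −0.29 (median −0.70) in the control rats, a difference of −0.54 (95% confidence interval −1.10 to 0.0069, adjusted p = 0.360), or −0.28 without clodronate rat 2. *Fgf2* was at 1.99, 2.80, 2.86, 2.04, and 2.58 in the clodronate rats and at 2.59 to 2.83 (median 2.73) in the control rats. The control rats lay close together, and clodronate rats 1, 4, and 5 were below all of them, rat 5 only just, with a difference of −0.27 (95% confidence interval −0.91 to 0.36), or −0.16 without rat 1 and −0.17 without rat 4. The standard deviation of *Fgf2* was 0.905 in SD rats, 0.416 in clodronate rats, and 0.091 in control rats, so its interval also carries the spread of SD rats. *Cntf* and *Igf1* had differences of −0.07 and 0.08.

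**Figure D4:**
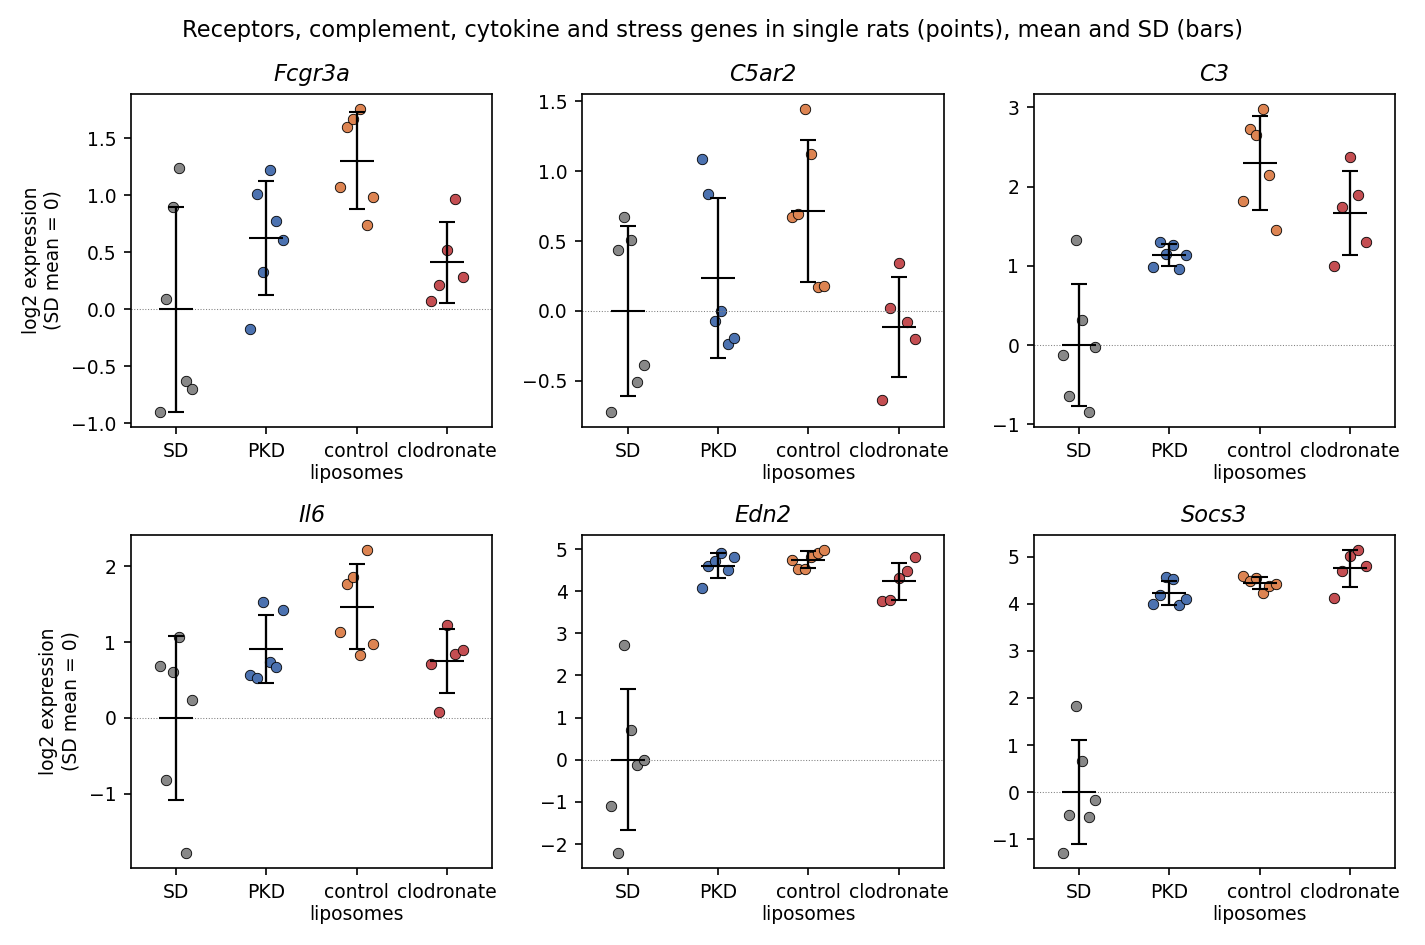
Expression of *Fcgr3a*, *C5ar2*, *C3*, *Il6*, *Edn2*, and *Socs3* in single rats (points; vertical axes, log2 with the SD mean at 0) of the 4 groups, with mean and SD as bars. For these genes the clodronate and control liposome groups overlap, with 4 of 5 clodronate rats below all control rats for *Edn2*.

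All 7 vascular and growth factor genes differed by less than 0.5, with a median of 0.15. *Tgfb1* had the largest difference, 0.34 (95% confidence interval −0.32 to 1.00; 0.15 to 0.53 when single rats were left out), with 0.12, 1.23, 1.39, 0.53, and −0.10 in the clodronate rats and −0.03 to 0.96 (median 0.13) in the control rats. *Vegfa*, the endothelial growth factor, differed by 0.25 (95% confidence interval −0.21 to 0.71) and its relative *Pgf* by 0.32 (95% confidence interval −0.33 to 0.97). With single rats left out, *Vegfa* ranged from 0.12 to 0.39 and *Pgf* from 0.18 to 0.52. The leukocyte adhesion molecule *Icam1* differed by 0.15 (0.044 to 0.28 when single rats were left out) and *Tnfrsf12a* by 0.09. *Sphk1* and *Tgfb2* were each at −0.01 and turned slightly positive with any reference gene other than 18S removed.

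The difference between the liposome groups can be set beside uninjected PKD rats, with the limits that the comparisons share samples and that the groups differ in animal number series. The numbers of the 6 uninjected PKD rats and those of the 6 SD rats each form a run of their own, apart from those of the liposome groups. Number run and group therefore cannot be told apart between uninjected PKD rats and any other group. *Aif1* was at 0.12 ± 0.371 (SD, n = 6) in uninjected PKD rats, between the clodronate rats at −0.22 and the control rats at 0.77. The clodronate rats differed from uninjected PKD rats by −0.35 (adjusted p = 0.492 by limma) and the control rats by 0.65 (adjusted p = 0.153). *Itgam* was at 0.83 ± 0.166 in uninjected PKD rats. The clodronate rats differed from them by −0.13 (adjusted p = 0.738) and the control rats by 0.67 (adjusted p = 0.0844). For *Trem2*, *Fcgr3a*, and *C5ar2* the differences from uninjected PKD rats were −0.19, −0.22, and −0.35 with clodronate, and 0.74, 0.68, and 0.48 with control liposomes. Over the 41 genes, 0 (0%) passed between clodronate and uninjected PKD rats and 1 (2.44%), *C3* at 1.16 (adjusted p = 0.0490), between control liposome and uninjected PKD rats. Between uninjected PKD and SD rats, 15 genes (36.6%) passed.

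The reference genes had a mean Cq of 16.5 ± 0.548 (SD, n = 5) in the clodronate rats and 16.4 ± 0.175 (n = 6) in the control rats, a difference of 0.023 cycles (two-sided exact permutation test, p = 0.926). Within them, 18S was read 0.492 cycles later in the clodronate rats (7.30 ± 0.895 against 6.81 ± 0.403, exact permutation p = 0.268), whereas *B2m*, *Mrpl19*, and *Ywhaz* differed by −0.0543, −0.197, and −0.150 cycles (exact permutation p = 0.894, 0.509, and 0.684). The adjusted p over these 5 tests was 0.926 for each. Clodronate rats 2 and 3 had the latest 18S, at 7.84 and 8.61 cycles. Clodronate rat 4 had the latest *B2m*, *Mrpl19*, and *Ywhaz*, at 18.23, 24.43, and 19.11 cycles, and was the rat highest in *Aif1*, *Trem2*, and *Fcgr3a* among the clodronate rats. The part of these Cq values in the differences was measured by changing the normalizer. Over the 4 sets of 3 reference genes, *Aif1* stayed between −1.15 and −0.92 and *Itgam* between −0.96 and −0.73.

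**Figure D5:**
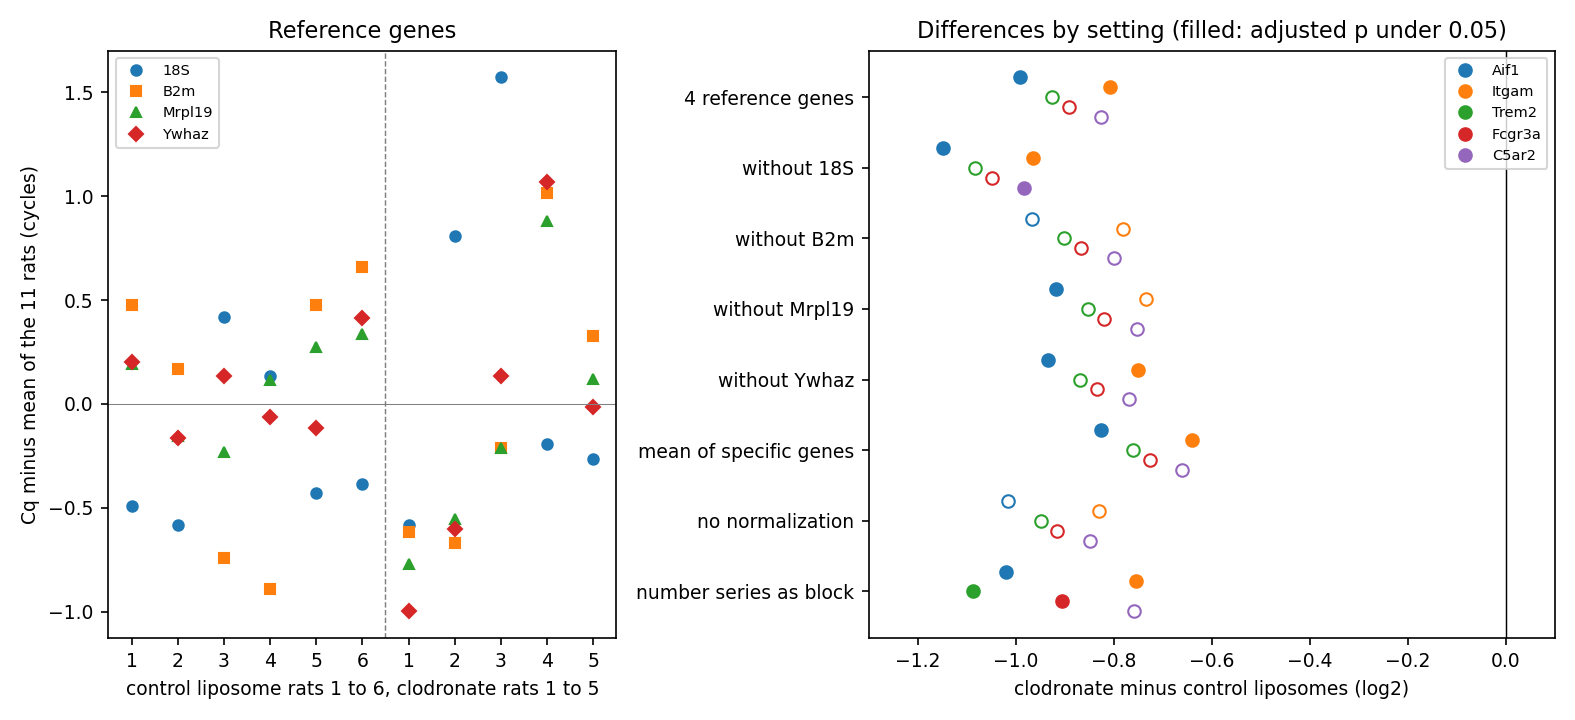
Left, Cq of each reference gene minus its mean over the 11 rats (vertical axis, cycles) in every control liposome and clodronate rat (horizontal axis). Right, difference in log2 expression (horizontal axis) of 5 genes under 8 settings, with filled points where the adjusted p was under 0.05. All 5 genes stay below 0 in each of these settings, and *Aif1* and *Itgam* are open without *B2m* and without normalization.

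The animal numbers in the column headers fall into a lower series (3 clodronate and 5 control rats) and a higher one (2 clodronate and 1 control rat), and what the series stand for is not given in the sources used here. Within the lower series, *Aif1* differed by −1.26, *Itgam* by −0.82, and *Trem2* by −1.47 (exact permutation p = 0.0179 for each, the smallest that 3 rats against 5 allow). The groups did not overlap there for these genes, nor for *Edn2* at −0.75 (exact p = 0.0179) and *Fcgr3a* at −1.10 (exact p = 0.0357), which makes 5 of 41 genes (12.2%), all lower with clodronate. *Bdnf* at −0.86 had the same p as *Fcgr3a* with overlapping groups. These p-values are not adjusted, and 6 of 41 genes (14.6%) had one under 0.05. In limma on the rats of the lower series alone, *Itgam* did not pass after adjustment. In the higher series, which has no test, the differences were −0.34 for *Aif1*, −0.57 for *Itgam*, −0.0024 for *Trem2*, −0.36 for *Fcgr3a*, and −0.34 for *Edn2*. With the series as a block in limma, fitted on the 2 compared groups alone, 4 genes passed, *Trem2* (−1.09, adjusted p = 0.0425) and *Fcgr3a* (−0.91, adjusted p = 0.0469) in addition to *Aif1* and *Itgam*. In limma on the same 2 groups without the block, *Fcgr3a* already passed (adjusted p = 0.0399) and *Trem2* did not.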

How the data were processed

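The authors extracted retinal RNA, pre-amplified the cDNA for 14 cycles and read TaqMan cards of 48 wells in a thermocycler with at most 40 cycles. They deposited the Cq values, a unit other than counts, before normalization. A deposited table of the authors' own fold changes was not used. Wells were named through the Cq values listed by gene in the supplement (48 of 48 matched within 0.001 cycles). The supplement also lists the animals of the groups used here. The labels also name 5 PBS-injected PKD rats and 6 clodronate-injected SD rats, and 11 further columns, which could not be tied to single groups, were not used.

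Expression was the mean Cq of 4 reference genes minus the Cq of the gene. Empty wells were left out. The 4 groups (23 rats) entered 1 fit by lmFit and eBayes of limma 3.58.1 (R 4.3.3 with statmod 1.5.0). Each gene thus had 1 estimate of spread over all 4 groups. Intervals are widened where SD rats spread most, as for *Edn2*, *Fgf2*, *Socs3*, *Gfap*, *Lcn2*, and *Serpina3n*. The p-values of limma are two-sided and were adjusted by Benjamini–Hochberg over 41 genes. Exact permutation tests compared the group means over all 462 splits. Plots were drawn with matplotlib 3.10.9 (Python 3.11.15, pandas 2.3.3). The fit was tested on simulated data.

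Members, gene lists, and tests were chosen with earlier results of these data known. Values are given in full for genes with an adjusted or unadjusted p under 0.05, groups that do not overlap or a difference of at least 0.5, for all microglia and macrophage markers, for the gene with the largest difference of each other list, and for *Fgf2*, *C1s*, and *C3*. Alternatives changed the normalizer, the treatment of empty wells and of Cq values above 35, the filter, the samples fitted and the test, used the animal number series, or left out each rat. The microglial normalizer was added after the data were seen. The values of 1 tested gene and 1 further promoter sequence are not reported here.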

Additional observations from a re-analysis of the deposited data

Results flagged for a closer look

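In a search for single values that stood apart, 82 groups of values (41 genes in both liposome groups) were examined and 5 values were found, where chance gives about 4.1. In the control group, all of them belonged to rat 3. Its *Tgfb2* was 2.10, with the other control rats at −0.22 to 0.56, its *Icam1* was 1.71, with the others at 0.79 to 1.09, and its *Chi3l1* was 0.97, with the others at 1.51 to 1.71. In the clodronate group, *Nos2* was −2.12 in rat 4, with the others at −0.29 to 0.18, and *Serpina3n* was 2.75 in rat 1, with the others at 4.05 to 4.50.

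Outside the tested genes, *Il13* had a Cq of 15.2 in clodronate rat 2, whereas the other Cq values of *Il13* in the 23 rats lay between 28.8 and 33.3. It is 1 well, which was not repeated.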

How the results depend on the processing

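Of the 18 settings, 8 left the differences of *Aif1* and *Itgam* as they were and changed only the test, the samples fitted, the filter or wells of other genes. In the other 10, *Aif1* passed in 7 (−1.26 to −0.57) and *Itgam* in 5 (−0.96 to −0.38). Leaving out 1 rat, *Aif1* passed in 7 of 11 fits (adjusted p 0.00828 to 0.0647) and *Itgam* in 4 (−0.87 to −0.73). Without the microglial normalizer, 28 of the 41 genes kept the sign of their difference and 13 changed it in some setting or fit. Without single rats, 0 to 3 genes passed, all lower with clodronate (0 to 3 lower, 0 to 0 higher). The count was 0 without clodronate rat 1, clodronate rat 3, control rat 2, or control rat 4, and 3 without clodronate rat 4. The difference in mean reference Cq ranged from −0.148 to 0.211 in these fits.

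The total was 0 without *B2m*, 0 without normalization, and 1 (*Aif1*) without *Mrpl19*, where *Itgam* had an adjusted p of 0.0870. In limma, 5 genes had an unadjusted p under 0.05 in each of these. It was 4 with the number series as a block, 3 in the fit of the 2 compared groups (*Fcgr3a* in addition) and 3 without 18S (*C5ar2* in addition). With no minimum number of Cq values it was 3, the third being *Il13* with 1 well against 1, the 1 gene called higher with clodronate. It was 0 when the mean of the 6 microglia and macrophage markers was the normalizer, which holds the 2 genes that passed and shifted the median of all genes by 0.42. There *Aif1* was at −0.57 (adjusted p = 0.0645) and *Itgam* at −0.38 (0.101), and 17 genes had an unadjusted p under 0.05, of which 2 were lower and 15 higher. Among the rats of the lower number series alone, *Itgam* did not pass (adjusted p = 0.111). *Trem2* passed in 2 of the 18 settings, the number series as a block among them. The cause of these changes was not tested. The specific genes as normalizer shifted the median by 0.17 and leaving out 18S by −0.16.

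The sign turned for small differences. With the microglial normalizer, whose shift turns negative differences smaller than it, *Fgf2* was 0.15, *Cntf* 0.35, *Chi3l1* 0.37, *Tyrobp* 0.093, *Gfap* 0.30, *Timp1* 0.023, *Sphk1* 0.42, *C5ar1* 0.31, *Tgfb2* 0.42, *Lcn2* 0.024, and *Il18* 0.0026. With the specific genes, *Cntf* was 0.097, *Chi3l1* 0.11, *Gfap* 0.044, *Sphk1* 0.16, *C5ar1* 0.054, and *Tgfb2* 0.16. Without 18S, *Il1b* was −0.075, *C1s* −0.087, *Igf1* −0.073, *Tnfrsf12a* −0.070, and *Icam1* −0.0074. Without *Mrpl19*, *Cntf* was 0.0037, *Chi3l1* 0.015, *Sphk1* 0.065, and *Tgfb2* 0.066. *Sphk1* was 0.018 without *B2m*, 0.050 without *Ywhaz*, 0.059 with sample weights, and 0.037 with the series as a block, and *Tgfb2* was 0.018, 0.050, 0.22, and 0.066. Leaving out single rats gave −0.031 to 0.48 for *Mrc1*, −0.082 to 0.27 for *Il1b*, −0.16 to 0.027 for *Cntf*, −0.18 to 0.036 for *Chi3l1*, −0.061 to 0.22 for *C1s*, −0.20 to 0.0022 for *Gfap*, −0.014 to 0.37 for *Stab1*, −0.11 to 0.097 for *Sphk1*, −0.24 to 0.018 for *C5ar1*, −0.14 to 0.32 for *Tgfb2*, −0.0016 to 0.18 for *Igf1*, and −0.038 to 0.17 for *Tnfrsf12a*. No paired analysis was possible because the columns carry animal numbers and not the replicate numbers of the labels.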
